A study of Mus musculus with 35 samples.

Results

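A set of 33 genes of cholesterol synthesis, uptake and transport was followed in mouse testis across Akt1 genotype, propylthiouracil (PTU) exposure and age. They were the probe sets annotated to 33 listed symbols, with probe sets of several symbols left out and the brightest probe set taken for each gene. Of the 33 genes, 30 had such a probe set on each array type and all 30 passed the filter on dim probe sets at both ages, among 16710 genes tested at day 15 and 16305 at day 25. Acat2, Soat1 and Nr1h2 were absent from the annotation used here of both array types. The 19 listed synthesis enzymes (18 measured) run from acetyl-CoA to cholesterol, and the others sense sterols, take cholesterol up, move it inside the cell or export it.

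The study crossed 3 genotypes (Akt1+/+, Akt1+/- and Akt1-/-, called wild type, heterozygous and homozygous below) with PTU or no exposure in male C57BL6 mice, and read total RNA of whole testis at postnatal day 15 or 25. PTU is a goitrogen, a drug that blocks the synthesis of thyroid hormone. Each array held 1 mouse and each group 3 arrays, except the exposed homozygous group of day 25, which held 2 because the authors left out another array as being of low quality. Day 15 (18 arrays) and day 25 (17 arrays) were run on different Affymetrix array types, so levels and differences were never tested across ages. The part of Akt1 that the mutation removes, the cells it acts in, and the dose, route and timing of PTU are not given in the sources used here.

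Cholesterol is built from acetyl-CoA through mevalonate, isoprenoids, squalene and lanosterol. When membranes of the endoplasmic reticulum are poor in sterol, the escort protein encoded by Scap carries the SREBP factors (Srebf1, Srebf2) to the Golgi, where they are cut and released to switch on synthesis and uptake genes, while the Insig proteins hold them back when sterol is plentiful. In the testis, Leydig cells use cholesterol to make androgens, and Sertoli and germ cells need it for membranes.

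All values are log2 intensities, and a difference is a difference of group means on that scale with its standard error. A member is said to rise, fall or pass where limma's Benjamini-Hochberg adjusted p over all tested genes of that age and comparison was under 0.05. The p-values measure the spread between mice, and the number of arrays limits the precision. Member counts at an unadjusted p under 0.05 cannot be set against the shares of all genes, which use the adjusted p. Whole testis was measured, so fewer cells of a type and less RNA per cell cannot be told apart.

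Akt1 itself overlapped between unexposed wild type and homozygous testis at day 15, at 9.34 to 9.71 and 9.04 to 9.40. Between the exposed groups of that age it did not, at 9.92 to 10.09 in wild type and 9.01 to 9.74 in homozygous arrays. Among 4 Akt1 probe sets of day 25 the brightest read 9.38 to 9.55 in unexposed wild type against 9.28 to 9.46 in unexposed homozygous arrays. The next brightest was lower in homozygous testis without overlap, at 8.92 to 9.13 against 8.04 to 8.43. Since the deleted part is unknown, the genotype labels cannot be checked this way. Array medians lay between 7.02 and 7.12 at day 15 and between 6.46 and 6.55 at day 25. The day 15 arrays fell into 2 sets by 1685 bright unnamed probe sets, and the second set held 6 arrays, none of them wild type. In 3 arrays of day 15 the epididymal transcript Spink8 lay above 7 (unexposed wild type 2 and 3, and exposed homozygous 2, at 9.38, 7.91 and 8.74). Every homozygous array of day 25, exposed or not, had a larger 3′ minus 5′ difference of the β-actin control probe sets, a measure of RNA integrity, at 0.953 to 1.44 against 0.546 to 0.777 in the other arrays.

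Promoters were read from RefSeq (build GRCm38.p6) as a description, and shared control of the members was not tested. Of the 33 members, 26 had an entry, which runs from 250 bases before to 50 after a gene's start. The sterol regulatory element core TCACNCCAC, searched on both strands with N for any base, matched in 1 of 26 members, Hmgcs1, and in 1.41% of protein-coding genes. The NF-Y box CCAAT, also searched on both strands, matched in 21 of 26 members (80.8%) and in 42.3% of protein-coding genes. The 250 bases before the start are shown 5′ to 3′ on the gene's strand for the member with both matches, for 2 sensing genes with the NF-Y box alone, and for Nr1h3, which has neither, with matches in capitals. Hmgcs1 lies on the plus strand at chr13:119690101-119690350, Insig1 on the plus strand at chr5:28071162-28071411, Srebf2 on the plus strand at chr15:82147019-82147268, and the more upstream of 2 Nr1h3 starts on the minus strand at chr2:91195117-91195366.
Hmgcs1: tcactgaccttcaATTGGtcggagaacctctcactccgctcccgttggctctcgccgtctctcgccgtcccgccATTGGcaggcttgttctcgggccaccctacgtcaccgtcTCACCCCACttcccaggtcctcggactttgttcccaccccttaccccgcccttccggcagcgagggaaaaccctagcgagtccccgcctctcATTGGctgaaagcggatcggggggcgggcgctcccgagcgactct
Insig1: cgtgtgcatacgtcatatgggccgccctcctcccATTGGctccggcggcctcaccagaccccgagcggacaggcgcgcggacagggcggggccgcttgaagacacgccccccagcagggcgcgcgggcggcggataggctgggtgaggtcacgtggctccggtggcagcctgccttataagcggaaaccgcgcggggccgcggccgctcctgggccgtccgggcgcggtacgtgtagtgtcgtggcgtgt
Srebf2: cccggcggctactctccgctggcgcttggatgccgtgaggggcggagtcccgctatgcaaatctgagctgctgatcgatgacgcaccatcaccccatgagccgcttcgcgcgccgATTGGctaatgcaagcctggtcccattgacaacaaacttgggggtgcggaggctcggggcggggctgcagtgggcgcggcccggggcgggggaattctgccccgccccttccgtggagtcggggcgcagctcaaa
Nr1h3: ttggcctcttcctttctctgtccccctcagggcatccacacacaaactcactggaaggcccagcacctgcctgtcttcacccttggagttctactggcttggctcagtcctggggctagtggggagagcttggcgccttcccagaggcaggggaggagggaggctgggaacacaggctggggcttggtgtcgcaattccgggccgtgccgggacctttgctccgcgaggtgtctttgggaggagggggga
Hmgcs1 carries the TCACNCCAC core once and 3 NF-Y boxes in these 250 bases, while Insig1 and Srebf2 carry 1 NF-Y box each. Only exact matches were counted, so elements that differ by a letter are missed. A match is a description of the letters, and binding was not measured.

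At day 15 the clearest difference lay between unexposed homozygous and unexposed wild type testis. Of 30 members, 11 were higher in homozygous testis and 2 lower, with Srebf2, Dhcr7, Scarb1 and Mvk showing the largest increases. Of all tested genes 28.9% passed in this comparison, 14.6% upward and 14.2% downward. The members' median difference was 0.28 against 0.08 over all genes, and 25 of the 30 differences were positive.

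In the mevalonate arm 3 of 7 measured enzymes were higher. Mvk, mevalonate kinase, read 7.98, 7.92 and 8.00 in wild type and 8.53, 8.22 and 8.64 in homozygous testis (difference 0.50 ± 0.14, adjusted p = 0.014). Fdps, which makes farnesyl diphosphate, read 9.01, 9.15 and 9.06 against 9.53, 9.34 and 9.45 (0.37 ± 0.12, adjusted p = 0.0232). Neither pair of groups overlapped. Hmgcs1, the synthase that condenses acetyl groups ahead of the rate-limiting step, moved from 11.12, 11.41 and 11.26 to 11.62, 11.60 and 11.51 (0.31 ± 0.11, adjusted p = 0.037). None of the 3 enzymes from squalene to lanosterol passed.

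From lanosterol to cholesterol 3 of 8 enzymes were higher and 1 lower. Dhcr7, the reductase of the last step, read 8.98, 9.04 and 8.94 in wild type and 9.71, 9.64 and 9.38 in homozygous testis (0.59 ± 0.14, adjusted p = 0.00429). Hsd17b7, a sterol ketoreductase, read 8.58, 8.73 and 8.60 against 9.23, 9.23 and 8.82 (0.46 ± 0.13, adjusted p = 0.0162). The wild type arrays lay below every homozygous array for both genes. The sterol isomerase Ebp gave 0.45 ± 0.16 (adjusted p = 0.0382). Tm7sf2, a sterol reductase, went the other way, from 8.14, 8.23 and 8.14 to 7.94, 7.95 and 7.69 (-0.31 ± 0.10, adjusted p = 0.027).

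Among the 5 sterol sensing genes 3 were higher and 1 lower. Srebf2, the SREBP factor best known for cholesterol genes, read 9.37, 9.53 and 9.53 in unexposed wild type and 10.37, 10.13 and 10.31 in unexposed homozygous testis. That difference of 0.79 ± 0.14 (adjusted p = 0.00038) was the largest of any member in this comparison, and the 3 unexposed wild type arrays were lower than all 15 others. Insig1, itself a target of SREBP, read 10.17, 10.37 and 10.22 against 10.92, 10.57 and 10.61 (0.44 ± 0.13, adjusted p = 0.0202). Its relative Insig2 moved in the opposite direction, from 10.90, 10.83 and 10.93 to 10.48, 10.47 and 10.35 (-0.46 ± 0.13, adjusted p = 0.0135). Neither Insig gene overlapped between these groups. Srebf1, better known for fatty acid genes, gave 0.39 ± 0.13 (adjusted p = 0.039).

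Of the 4 measured uptake and movement genes 2 were higher. Scarb1, the receptor through which steroid-making cells take cholesterol ester from high-density lipoprotein, read 10.82, 10.77 and 10.72 in wild type and 11.49, 11.28 and 11.08 in homozygous testis (0.51 ± 0.14, adjusted p = 0.0139). Npc1, which lets cholesterol out of late endosomes, read 8.69, 8.93 and 8.89 against 9.31, 9.19 and 9.08 (0.36 ± 0.13, adjusted p = 0.0404). Both sets of groups stayed apart. None of the 3 measured efflux genes (Abca1, Abcg1, Nr1h3) passed.

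The day 15 plot of 8 members shows these values by array.

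**Figure D1:**
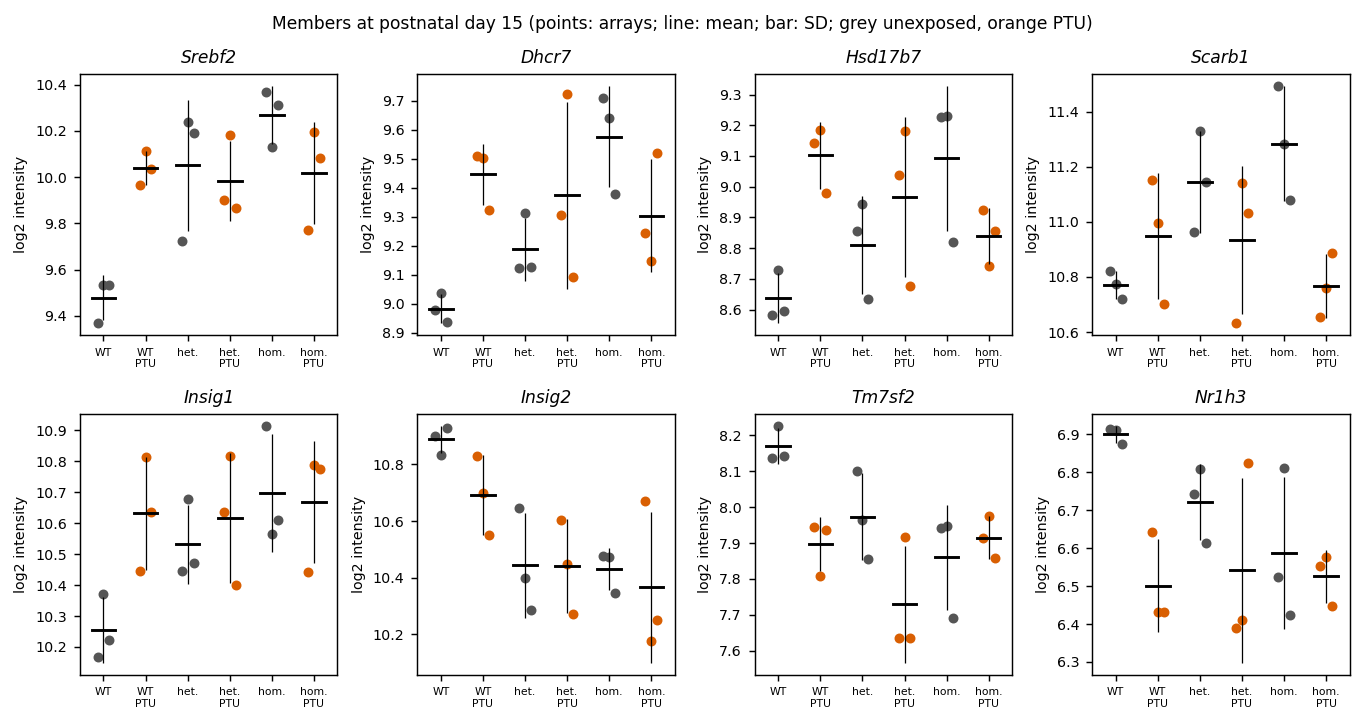
Log2 intensity (vertical axes) of 8 members at day 15 in wild type (WT), heterozygous (het.) and homozygous (hom.) testis, unexposed (grey) or exposed to PTU (orange). Each point is 1 array, lines are group means and bars SD (n = 3). Unexposed wild type lies lowest of all 6 groups for Srebf2, Dhcr7, Hsd17b7 and Insig1 and highest for Insig2, Tm7sf2 and Nr1h3.

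Cell type markers moved in the same comparison. The mean of 9 pachytene spermatocyte markers was 9.82 to 10.34 in unexposed wild type arrays and 6.14 to 7.02 in unexposed homozygous ones, and all 9 fell. Of the Sertoli markers 5 of 9 rose (9.70 to 9.88 against 10.07 to 10.36), of the spermatogonial ones 4 of 7, and 1 Leydig marker of 6 rose and 1 fell. Macrophage markers were lower (8.10 to 8.39 against 7.73 to 7.85, with 4 of 10 falling), and the endothelial mean was higher (7.06 to 7.42 against 7.53 to 7.84, with 1 of 4 rising). The Leydig mean was 8.32 to 8.82 against 8.85 to 9.35 (Insl3 and Lhcgr were absent from the annotation). The part of these cell types in the members' differences was not tested. Without the 3 arrays with Spink8 above 7, 2 members passed, Srebf2 (0.90) and Hmgcs1 (0.45), and the other 11 kept their direction. Without unexposed homozygous array 1 the count was 4, and it was 5 without unexposed wild type array 1 or array 3. Dhcr7, Insig2 and Srebf2 passed whichever single array was left out. Within the first array set, which holds all wild type arrays, 20 members passed, and with array weights 22. Here and below, the share of all genes passing in an alternative is not given, so higher counts are no stronger result about the members.

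PTU exposure of wild type mice raised 5 of 30 members at day 15 and lowered 1. In this comparison 15.3% of all tested genes passed, 6.53% upward and 8.75% downward, and the members' median was 0.16 against 0.03 over all genes. It shares the unexposed wild type arrays with the genotype comparison above, so the 2 are not independent. Srebf2 read 9.97, 10.11 and 10.04 in the exposed arrays, above all 3 unexposed ones (0.56 ± 0.14, adjusted p = 0.011). Hsd17b7 read 9.14, 9.19 and 8.98 (0.47 ± 0.13, adjusted p = 0.0253) and Dhcr7 9.51, 9.50 and 9.32 (0.46 ± 0.14, adjusted p = 0.0332), again above every unexposed array. Npc1 gave 0.38 ± 0.13 (adjusted p = 0.0474).

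Lss, the cyclase that forms lanosterol, rose from 8.98, 9.02 and 8.95 to 9.22, 9.32 and 9.28 (0.29 ± 0.09, adjusted p = 0.0458). Nr1h3, the oxysterol receptor that drives cholesterol export genes, fell from 6.91, 6.91 and 6.87 to 6.64, 6.43 and 6.43 (-0.40 ± 0.12, adjusted p = 0.0317), with no overlap. No enzyme of the mevalonate arm passed. The pachytene mean was 7.23 to 8.56 in the exposed arrays, with all 9 markers lower, and the macrophage mean was 7.49 to 7.79 against 8.10 to 8.39, with 7 of 10 lower. Other lists were higher in exposed testis: 4 of 7 spermatogonial markers rose (9.33 to 9.45 against 9.68 to 9.84), as did 1 of 4 endothelial ones (7.06 to 7.42 against 7.46 to 7.54), and of 9 Sertoli markers 4 rose and 1 fell. Their part in the members' differences was not tested. Without exposed array 2, unexposed array 1, or the arrays with Spink8 above 7, no member passed. The count was 1 without unexposed array 3 and 2 without unexposed array 2 or exposed array 3. It was 10 within the first array set, 10 with these 2 groups fitted alone and 14 with array weights.

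Exposure of homozygous mice lowered 1 member at day 15, where 4.96% of all genes passed (4.37% downward). Scarb1 read 11.49, 11.28 and 11.08 without exposure and 10.65, 10.76 and 10.89 with it (-0.52 ± 0.14, adjusted p = 0.0484). The exposed values overlapped those of unexposed wild type testis and lay below all 3 unexposed homozygous ones. The next 2 by p were Hmgcs1 (-0.32 ± 0.11, adjusted p = 0.0905) and Ebp (-0.45 ± 0.16, adjusted p = 0.1). Leydig cells are known for high Scarb1, and the Leydig marker mean was 8.38 to 8.59 in the exposed and 8.85 to 9.35 in the unexposed homozygous arrays. Of 9 Sertoli markers 3 fell as well, as did 3 of 10 macrophage markers. The part of these lists was not tested. The Scarb1 call was lost within either array set, with array weights or the array set as a block, and on leaving out any 1 of 12 arrays: unexposed homozygous 1 or 2, exposed homozygous 1, 2 or 3, unexposed wild type 1, 2 or 3, exposed wild type 2, unexposed heterozygous 2 or 3, or exposed heterozygous 3.

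In heterozygous mice no member passed for PTU by limma at day 15 (0.569% of all genes did), and 1 had an unadjusted p under 0.05. Tm7sf2 had the smallest p (-0.25 ± 0.10, adjusted p = 0.287), followed by Nr1h3 (-0.18 ± 0.12, adjusted p = 0.538) and Srebf1 (-0.20 ± 0.13, adjusted p = 0.553). Averaged over genotypes PTU called no member by limma against 12% of all genes (3.88% up, 8.09% down), with 5 members at an unadjusted p under 0.05. Nr1h3 (-0.21 ± 0.07, adjusted p = 0.0522), Tm7sf2 (-0.15 ± 0.06, adjusted p = 0.0906) and Npc2 (-0.12 ± 0.05, adjusted p = 0.138) came nearest. Array weights gave 4 calls there and the array set as a block 3, and 2 members passed without exposed heterozygous array 3 or unexposed homozygous array 3.

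Among exposed mice of day 15 no member, and none of all tested genes (0%), differed between homozygous and wild type by limma. At an unadjusted p under 0.05 there were 4 members, led by Fdps (0.31, adjusted p = 0.126), Mvk (0.36, adjusted p = 0.138) and Insig2 (-0.33, adjusted p = 0.141). Without exposed homozygous array 1 the count was 5. Heterozygous minus wild type, averaged over exposure, also called no member by limma, with 0.999% of all genes called (0.126% up, 0.874% down). At an unadjusted p under 0.05 there were 8 members, and the share of all genes at that level is not given here. Insig2 (-0.35, adjusted p = 0.0781), Mvk (0.28, adjusted p = 0.156) and Fdps (0.22, adjusted p = 0.166) led. The count there was 5 with array weights, 2 without unexposed heterozygous array 1 and 1 without exposed homozygous array 1.

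At day 25 the members moved most in PTU-exposed homozygous testis. Against unexposed homozygous testis 19 of 30 members rose and 7 fell, with Insig1, Srebf1, Npc1, Abcg1 and Ggps1 rising and Fdft1 and Nr1h3 falling most. Of all tested genes 71.2% passed in this comparison (38.4% up, 32.8% down), so a call by itself is common here. The members' median difference was 0.52 against 0.02 over all genes. The exposed group held 2 arrays, and the fit took their spread together with that of the other groups. Both arrays had the lowest array weight of this age (0.218). Their own spread was wider for some members, such as Srebf1 (SD 0.57 against 0.05 to 0.19 in the other groups), though not for Sqle (0.014 against 0.03 to 0.13). Where it was wider, the standard errors and p-values of the shared fit can be too small for this group.

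All 7 measured mevalonate arm enzymes passed, 5 upward and 2 downward. Ggps1, which makes geranylgeranyl diphosphate for protein prenylation, read 8.22, 8.53 and 8.55 without exposure and 9.58 and 9.84 with it (1.27 ± 0.12, adjusted p = 4.63e-07). Mvd, which makes isopentenyl diphosphate, read 7.56, 7.53 and 7.76 against 8.35 and 8.83 (0.97 ± 0.14, adjusted p = 2.01e-05). Hmgcs1 read 11.26, 11.35 and 11.34 against 11.96 and 12.27 (0.80 ± 0.12, adjusted p = 3.09e-05). For all 3 the exposed homozygous arrays were higher than the 15 other arrays of this age. Pmvk (0.34) and Fdps (0.33) rose less, and Idi1 (-0.28) and Mvk (-0.26) fell.

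The step from farnesyl diphosphate into sterols went the other way. Fdft1, squalene synthase, read 12.45, 12.68 and 12.67 without exposure and 11.55 and 11.07 with it (-1.29 ± 0.14, adjusted p = 1.95e-06), below every other array of the age. Sqle, which oxidises squalene, fell by 0.37 (adjusted p = 0.00501) while Lss gave 0.50 ± 0.12 (adjusted p = 0.00166).

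Of the 8 later enzymes 4 rose and none fell. Hsd17b7 read 7.50, 7.37 and 7.03 against 8.04 and 8.61 (1.03 ± 0.18, adjusted p = 9.28e-05). Msmo1, which oxidises methyl groups of lanosterol products, read 8.71, 9.01 and 8.59 against 9.54 and 9.94 (0.97 ± 0.21, adjusted p = 0.000706). The exposed Msmo1 values overlapped those of wild type arrays (9.16 to 9.62), whereas those of Hsd17b7 exceeded all other arrays. Dhcr7 (0.59) and the desaturase Sc5d (0.54) also rose. Cyp51 (-0.21), Tm7sf2 (0.46), Nsdhl (0.32) and Ebp (0.08) did not pass.

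All 5 sensing genes passed, 4 upward. Insig1 read 7.67, 7.05 and 7.28 without exposure and 9.09 and 9.69 with it, a difference of 2.05 ± 0.19 (4.15-fold, adjusted p = 4.1e-07) and the largest of any member in this comparison. Srebf1 read 8.26, 8.43 and 8.45 against 9.36 and 10.16 (1.38 ± 0.18, adjusted p = 7.57e-06). Scap read 9.79, 10.09 and 10.12 against 11.02 and 11.38 (1.20 ± 0.14, adjusted p = 2.37e-06). In each of the 3 the exposed homozygous arrays were the highest of all 17. Srebf2 rose by 0.50 ± 0.12 (adjusted p = 0.00173), and Insig2 fell by 0.57 ± 0.14 (adjusted p = 0.00233).

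Among the uptake and movement genes 3 rose and 1 fell. Npc1 read 5.65, 5.85 and 6.02 against 6.86 and 7.55 (1.36 ± 0.16, adjusted p = 3.6e-06). Stard4, a carrier of sterol between membranes, read 7.81, 7.86 and 7.84 against 8.63 and 9.21 (1.08 ± 0.15, adjusted p = 1.07e-05). Npc2, the partner of Npc1 inside the endosome, read 11.27, 11.34 and 11.31 against 12.03 and 12.21 (0.81 ± 0.11, adjusted p = 1.6e-05). For these 3 genes the exposed arrays lay above all others of the age. Scarb1 fell by 0.43 ± 0.13 (adjusted p = 0.00964).

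The efflux transporters and their regulator separated. Abcg1 read 6.96, 6.77 and 6.60 against 7.87 and 8.28 (1.30 ± 0.14, adjusted p = 1.18e-06). Abca1 read 10.29, 10.66 and 10.43 against 11.38 and 11.71 (1.08 ± 0.28, adjusted p = 0.00255). Both transporters, which load cholesterol onto lipoproteins and are known targets of the oxysterol receptors, were highest in the exposed homozygous arrays. Nr1h3, which encodes one of those receptors, read 7.03, 6.91 and 7.02 against 6.06 and 5.73 (-1.09 ± 0.11, adjusted p = 9.95e-07), lower than in any other array. The day 25 plot of 8 members shows how far these arrays stood from the rest.

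**Figure D2:**
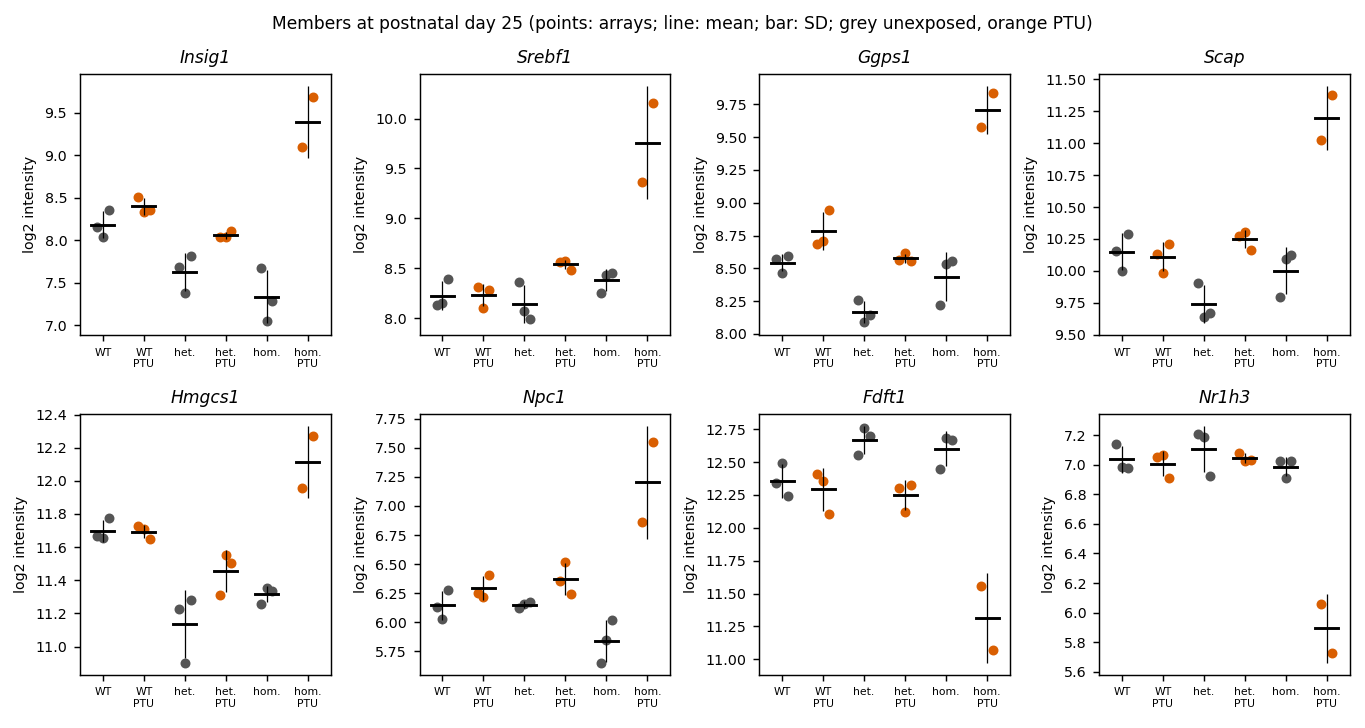
Log2 intensity (vertical axes) of 8 members at day 25 in the same 6 groups (grey unexposed, orange PTU; WT wild type). Each point is 1 array, lines are group means and bars SD (n = 3, but n = 2 for exposed homozygous). Exposed homozygous arrays lie above all others for Insig1, Srebf1, Ggps1, Scap, Hmgcs1 and Npc1 and below all others for Fdft1 and Nr1h3.

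The calls held unevenly. With exposed homozygous array 2 left out, which leaves 1 array assumed to vary like the other groups, 16 members passed, and with array weights 17. Of the 26, 14 passed in every alternative that used the brightest probe set. These were Hmgcs1, Mvd, Ggps1, Fdft1, Msmo1, Hsd17b7, Srebf1, Scap, Insig1, Npc1, Npc2, Stard4, Abcg1 and Nr1h3.

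Different probe sets of a gene did not always give the same answer. Of the 30 members, 12 had 1 tested probe set at day 25 and 18 had several, 65 in all, and here p-values were adjusted over every probe set. For Hmgcs1, Ggps1 and Stard4 every probe set rose. The 3 Lss probe sets split, with 0.50 for the brightest, 1.07 and -0.49 for the others, all past the threshold. Cyp51 gave -0.21 with its brightest and 1.28 (adjusted p = 0.0027) with a dimmer one. For Insig2 the brightest gave -0.57 and the others 0.00 and 0.21. Fdft1 fell with its brightest and another (-1.29, -1.01), while 2 dim ones did not pass. For Abca1 the brightest alone passed (1.08), and the other 2 gave 0.59 (adjusted p = 0.272) and 0.62 (adjusted p = 0.278). Scarb1 likewise passed with its brightest (-0.43) and not with the others (-0.07, adjusted p = 0.638, and -0.28, adjusted p = 0.0897). Sc5d rose with its brightest alone (0.54), and the others had the opposite sign (-0.22, adjusted p = 0.49, and -0.14, adjusted p = 0.358). Hsd17b7 rose with its brightest (1.03) and another (0.59), while a dimmer one gave 0.03 (adjusted p = 0.88). In 7 of the 18 genes with several probe sets every one passed in 1 direction.

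**Figure D3:**
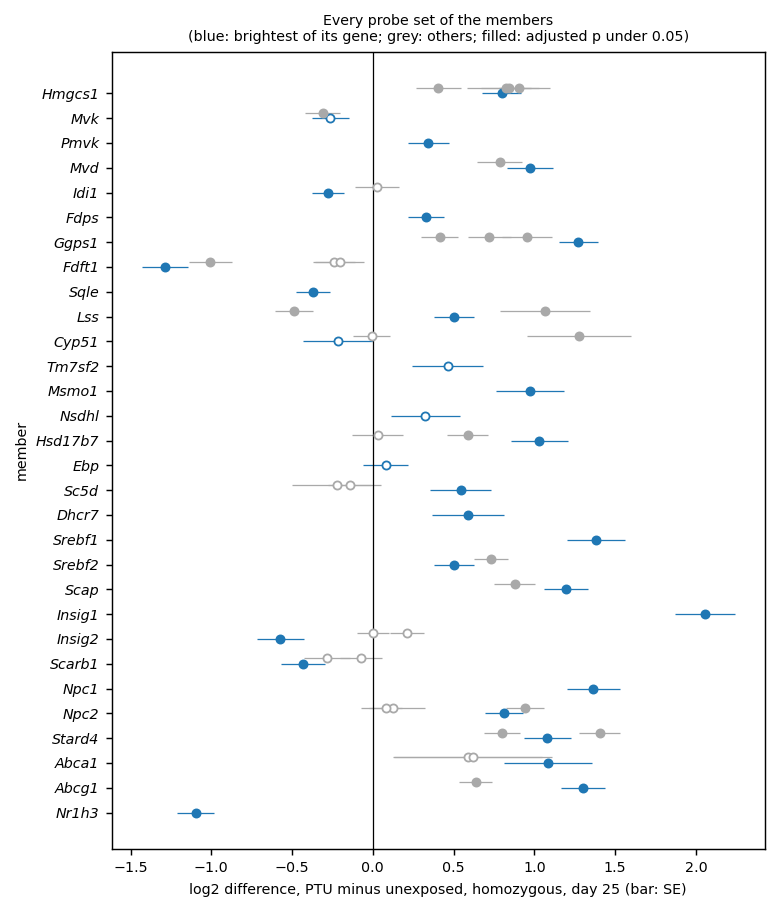
Log2 difference, PTU minus unexposed, in homozygous testis at day 25 (horizontal axis) for every tested probe set of each member (vertical axis). Blue is the brightest probe set of a gene and grey the others, filled where limma's adjusted p over all probe sets was under 0.05, with bars of SE; Insig1 lies farthest right at 2.05, and the filled Lss points lie on both sides of 0.

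The cell type markers changed along with the members in this comparison. The mean of 9 spermatid markers was 11.30 to 11.90 in unexposed and 5.67 to 6.33 in exposed homozygous arrays, with all 9 lower. All 9 pachytene markers were lower as well (12.82 to 13.08 against 10.31 to 11.95). All 7 spermatogonial markers were higher (8.28 to 8.33 against 9.28 to 9.75), 6 of 9 Sertoli markers rose and 2 fell, and 4 of 5 peritubular markers rose. Of 5 Leydig markers 2 fell (9.29 to 10.10 against 7.63 to 7.89), as did 6 of 10 macrophage markers. The epididymal mean was 6.20 to 6.37 in the exposed homozygous arrays and at most 5.95 elsewhere. The fat mean was 5.92 to 6.13 in unexposed and 7.48 to 8.49 in exposed homozygous arrays, with 2 of 4 markers rising, and it reached 6.71 to 9.81 in exposed wild type arrays. The endothelial mean was also higher (6.13 to 6.20 against 6.34 to 6.51), with 1 of 4 rising. The part of these shifts in the members' differences was not tested. With the β-actin difference as a covariate 23 members passed.

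**Figure D4:**
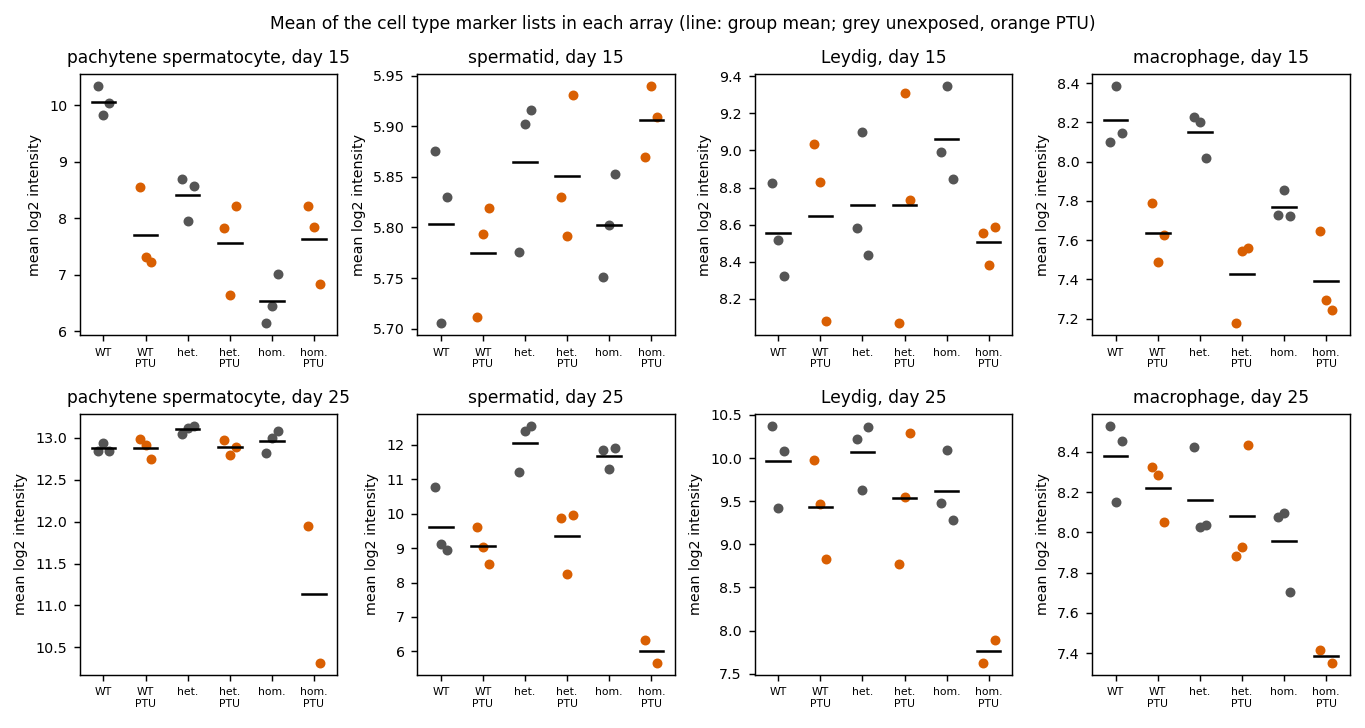
Mean log2 intensity (vertical axes) of the pachytene spermatocyte, spermatid, Leydig and macrophage marker lists in each array at day 15 (upper row) and day 25 (lower row), by group (grey unexposed, orange PTU; lines are group means). Unexposed wild type stands apart in the pachytene list at day 15 (9.82 to 10.34), and exposed homozygous testis in the spermatid list at day 25 (5.67 to 6.33).

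In heterozygous mice of day 25 PTU raised 3 members and lowered 2. That is 16.7% of the members, not above the 18.7% of all genes called (11.5% up, 7.2% down). Scap read 9.91, 9.64 and 9.67 without exposure and 10.27, 10.30 and 10.17 with it (0.51 ± 0.12, adjusted p = 0.0118). Ggps1 read 8.26, 8.09 and 8.14 against 8.56, 8.62 and 8.56 (0.41 ± 0.11, adjusted p = 0.0156). Abcg1 read 6.84, 6.54 and 6.85 against 7.20, 7.01 and 7.23 (0.40 ± 0.12, adjusted p = 0.0335). None of the 3 overlapped between the groups. Fdft1 fell from 12.55, 12.76 and 12.70 to 12.30, 12.12 and 12.32 (-0.42 ± 0.13, adjusted p = 0.0332). Cyp51, lanosterol demethylase, fell from 9.02, 9.28 and 9.59 to 8.63, 8.42 and 8.95 (-0.63 ± 0.19, adjusted p = 0.035). All 9 spermatid markers fell here too, from a mean of 11.21 to 12.56 to one of 8.25 to 9.96. Of the Sertoli markers 3 of 9 rose (9.22 to 9.39 against 9.49 to 9.68), of the peritubular ones 2 of 5 and of the spermatogonial ones 1 of 7. The part of these lists was not tested. Without unexposed array 2 or exposed array 2 of this genotype no member passed. The count was 3 without unexposed array 3, exposed array 1 or exposed array 3, and 8 without either exposed homozygous array.

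In wild type mice of day 25 PTU changed no member by limma, and none of all tested genes (0%). At an unadjusted p under 0.05 there were 2 members, and the smallest p-values belonged to Tm7sf2 (-0.46 ± 0.19, adjusted p = 0.789), Ggps1 (0.24 ± 0.11, adjusted p = 0.792) and Fdps (-0.19 ± 0.10, adjusted p = 0.853). Averaged over the 3 genotypes PTU called 22 members, 16 up and 6 down, against 63.9% of all genes (36.3% up, 27.6% down). Averaged over wild type and heterozygous mice alone, without the homozygous arrays, the count was 6: Ggps1 (0.33), Insig1 (0.32), Scap (0.24) and Abcg1 (0.22) were higher, and Cyp51 (-0.40) and Fdft1 (-0.24) lower. The share of all genes passing in that fit is not given here, so this count is no result about the members as a set.

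Unexposed homozygous testis of day 25 had 5 members lower than unexposed wild type testis and none higher, with 12.7% of all genes called (5.35% upward, 7.32% downward). Insig1 read 8.16, 8.04 and 8.35 in wild type and 7.67, 7.05 and 7.28 in homozygous testis (-0.85 ± 0.17, adjusted p = 0.0116). Stard4 read 8.31, 8.42 and 8.47 against 7.81, 7.86 and 7.84 (-0.56 ± 0.13, adjusted p = 0.019). Hmgcs1 read 11.67, 11.65 and 11.78 against 11.26, 11.35 and 11.34 (-0.38 ± 0.11, adjusted p = 0.0333). Each stayed clear of the other group. Other probe sets were less even, with p-values adjusted over every probe set. Hmgcs1 passed with another (-0.46) and not with the rest (-0.28, -0.35 and -0.17). Stard4 passed with another (-0.69) and not with the last (-0.19, adjusted p = 0.218). Tm7sf2 fell from 8.84, 8.11 and 8.65 to 7.95, 7.82 and 7.39 (-0.82 ± 0.19, adjusted p = 0.0202), and Msmo1 from 9.62, 9.16 and 9.54 to 8.71, 9.01 and 8.59 (-0.67 ± 0.19, adjusted p = 0.0321).

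In this comparison 5 of 9 spermatid markers were higher in homozygous testis (8.95 to 10.77 in wild type, 11.30 to 11.90 in homozygous), and no Leydig marker passed. Other lists were lower, as the 5 members were. The Sertoli mean was 9.58 to 9.71 in wild type and 9.33 to 9.51 in homozygous arrays, with none of 9 passing. The spermatogonial mean was 8.46 to 8.58 against 8.28 to 8.33 (1 of 7 fell), and the macrophage mean 8.15 to 8.53 against 7.70 to 8.09 (2 of 10 fell). The part of these lists was not tested. The β-actin difference separates the same 2 groups without overlap, at 0.546 to 0.673 in wild type and 0.953 to 1.31 in homozygous arrays. As a covariate it therefore cannot tell RNA integrity from genotype. With it 3 members passed, among them Insig1 (-1.21) and Stard4 (-0.90), while Hmgcs1, Msmo1 and Tm7sf2 did not. No member passed without unexposed wild type array 3, 1 did without homozygous array 3, 2 without wild type array 1 and 3 without homozygous array 1.

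Heterozygous testis of day 25, averaged over exposure, had 4 members lower than wild type and none higher. That is 13.3% of the members, not above the 18.8% of all genes called (6.67% upward, 12.2% downward). Hmgcs1 read 11.22, 10.90 and 11.28 in unexposed and 11.31, 11.55 and 11.50 in exposed heterozygous arrays, all below the 6 wild type arrays (-0.40 ± 0.08, adjusted p = 0.00398). Ggps1 gave -0.29 ± 0.07 (adjusted p = 0.0162), Insig1 -0.45 ± 0.12 (adjusted p = 0.0184) and Msmo1 -0.44 ± 0.13 (adjusted p = 0.0316). Hmgcs1 and Ggps1 passed in every alternative that used the brightest probe set. In the same comparison 5 of 9 spermatid markers were higher and 2 of 9 Sertoli markers lower, and their part was not tested. The count was 2 without unexposed heterozygous array 2 or unexposed wild type array 3.

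Among exposed mice of day 25, 14 members were higher and 4 lower where Akt1 was homozygous, against 61.1% of all genes called (32.7% up, 28.4% down). It shares its exposed homozygous arrays with the PTU comparison in homozygous mice. Srebf1 led at 1.53 ± 0.18 (adjusted p = 9.3e-06), against wild type values of 8.31, 8.10 and 8.28. Hsd17b7 (1.15 ± 0.18, adjusted p = 5.97e-05), Abcg1 (1.13 ± 0.14, adjusted p = 1.07e-05) and Scap (1.09 ± 0.14, adjusted p = 1.42e-05) followed, and Nr1h3 (-1.12 ± 0.11, adjusted p = 4.17e-06), Fdft1 (-0.98), Insig2 (-0.75) and Idi1 (-0.26) were lower. The marker lists separated as well. The spermatid mean was 8.53 to 9.62 in exposed wild type and 5.67 to 6.33 in exposed homozygous arrays (7 of 9 lower), and all 9 pachytene markers were lower. The Leydig mean was 8.83 to 9.98 against 7.63 to 7.89 (3 of 5 lower, 1 higher) and the macrophage mean 8.05 to 8.33 against 7.35 to 7.42 (8 of 10 lower). All 7 spermatogonial markers were higher (8.48 to 8.69 against 9.28 to 9.75), as were 4 of 5 peritubular and 6 of 9 Sertoli markers, with the other 3 Sertoli markers lower. The part of these lists in the members' differences was not tested. With the β-actin difference as a covariate 1 member passed, Nr1h3 at -0.81 (adjusted p = 0.045). That difference did not overlap between these groups, so the covariate cannot tell RNA integrity from genotype.

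Whether PTU acted differently in homozygous and wild type mice was tested as the PTU difference in homozygous minus that in wild type mice. At day 15, 4 of 30 members passed (13.3%), all more negative in homozygous mice (Srebf2, Dhcr7, Hsd17b7 and Scarb1), which is not above the 16.4% of all genes (8.13% more negative). Srebf2 went from 0.56 in wild type to a change of -0.25 in homozygous mice. At day 25, 23 members passed, 19 more positive and 4 more negative in homozygous mice, against 59.4% of all genes (33.1% and 26.3%). The count at day 15 was 2 without unexposed homozygous array 1, 1 (Srebf2) without the arrays with Spink8 above 7, and 10 with array weights.

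**Figure D5:**
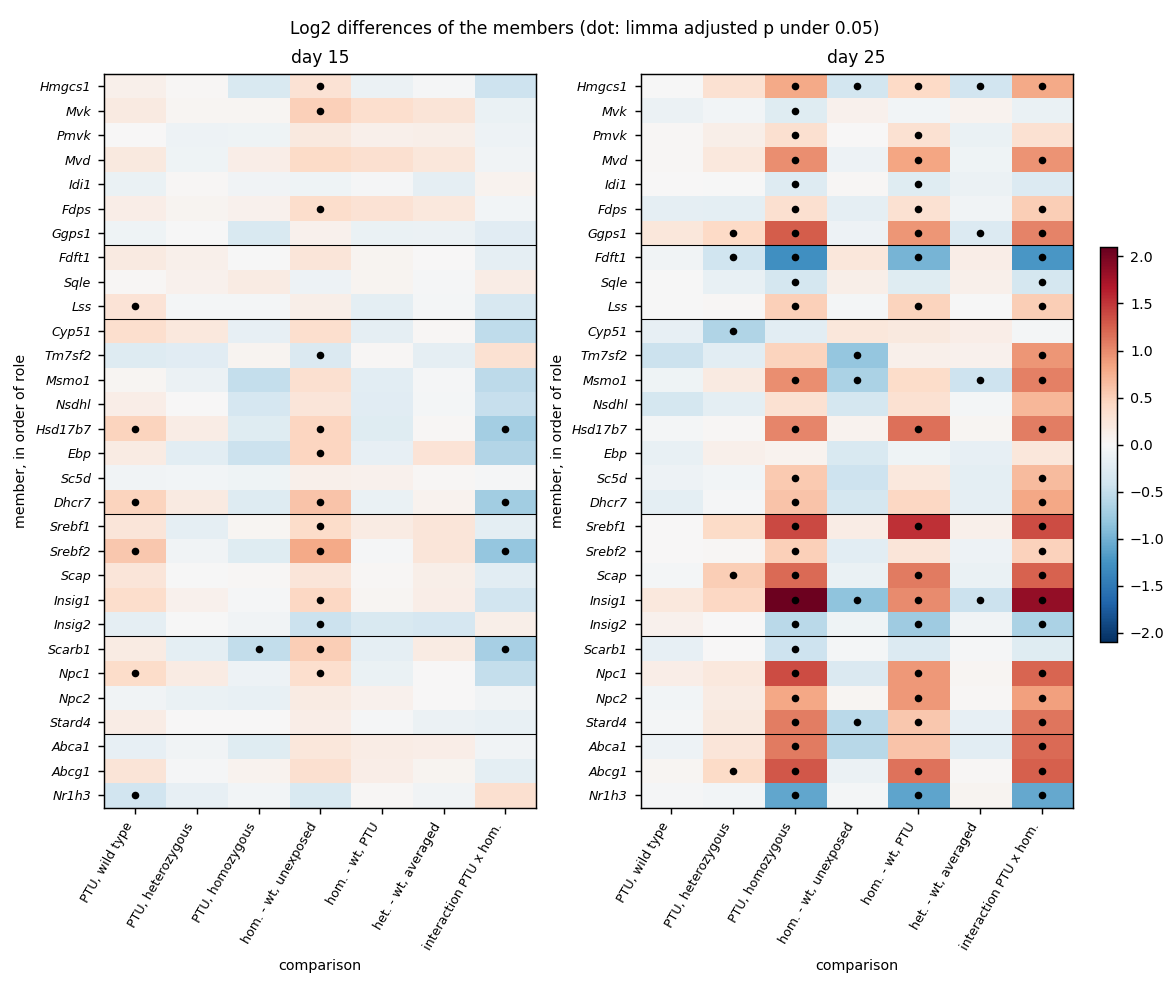
Log2 difference (colour) of the 30 measured members (vertical axis, in order of role) in 7 comparisons (horizontal axis) at day 15 (left) and day 25 (right). The last column is the PTU difference in homozygous minus that in wild type mice. A dot marks limma's adjusted p under 0.05, and the day 15 dots gather in the column of unexposed homozygous minus wild type (13 members) and the day 25 dots in that of PTU in homozygous mice (26 members).

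The comparisons with the most calls at each age share no arrays: unexposed homozygous minus wild type at day 15 (13 members) and PTU in homozygous mice at day 25 (26 members). They had 11 members in common, which is 84.6% of the first list and 42.3% of the second. Since 86.7% of all 30 members passed in the second comparison, and 71.2% of all genes, the first list had no larger share there than the members as a whole, and the overlap is not a result about these genes. Most calls were upward in both comparisons (11 of 13 and 19 of 26). Of the 11 shared members, 9 had the same sign (Hmgcs1, Fdps, Hsd17b7, Dhcr7, Srebf1, Srebf2, Insig1 and Npc1 up, Insig2 down). Mvk and Scarb1 rose in the first and fell in the second. Insig1 and Hmgcs1 also showed both signs by age in the unexposed genotype comparison, at 0.44 and 0.31 on day 15 and -0.85 and -0.38 on day 25, which was not tested across array types.

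At day 15 the range from lowest to highest of 18 arrays ran from 0.346 for Sqle to 1.27 for Msmo1. Msmo1 alone exceeded a range of 1. At day 25 it ran from 0.403 for Idi1 to 2.64 for Insig1, and 19 members exceeded 1. The highest Insig1 value, 9.69, was that of an exposed homozygous array. The array types differ, so the ranges of the 2 ages are not compared.

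Other genes of the pathway were counted from lists of neighbouring functions. In unexposed homozygous minus wild type testis at day 15, 5 of 11 fatty acid synthesis genes were higher and 1 lower, where 28.9% of all genes passed (14.6% upward). Elovl6, a fatty acid elongase, gave 0.82, Fasn, fatty acid synthase, 0.53 and Acly, which supplies acetyl-CoA, 0.50, while Acss2 gave -0.44. PTU in homozygous mice of day 15 lowered 5 of those 11 and raised none, where 4.37% of all genes fell, among them Scd2 (-0.55), Fads1 (-0.50), Fads2 (-0.65) and Gpam (-0.41). Both comparisons use the same unexposed homozygous arrays, so they are not independent. Unexposed homozygous array 3 and exposed homozygous arrays 2 and 3 lay in the second array set. The alternatives were counted for the members only, so how far the calls of these other genes hold was not tested. At day 25 PTU in homozygous mice raised 7 of the 11 and lowered none, among them Scd1 (1.70) and Acly (1.01). That total is below the 71.2% of all genes that passed there, while 38.4% of all genes rose.

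Of 8 genes of SREBP processing and sterol turnover, 5 rose and 2 fell in exposed homozygous testis of day 25. The counts of this and the next 3 lists stand beside 71.2% of all genes called in that comparison (38.4% up, 32.8% down), so a call by itself is common in these lists too. Both SREBP proteases rose, Mbtps1 by 0.91 ± 0.11 and Mbtps2 by 1.44 ± 0.16, and Rnf139 fell by 0.81 ± 0.14. Among 13 lipoprotein uptake and efflux genes 3 rose and 3 fell, fewer than that share, with Mylip, a ligase that marks lipoprotein receptors for breakdown, at 1.99 ± 0.13 and the receptor gene Lrp8 at -1.54 ± 0.40. Among 15 genes of sterol oxidation, transport and steroid entry 10 rose and 2 fell, with the oxysterol hydroxylase gene Cyp7b1 at 1.09 ± 0.10 and Osbp2 at -1.76 ± 0.20. Of 9 isoprenoid branch genes 6 rose and none fell, among them Rabggtb (0.68) and Coq2 (1.08). PTU in wild type mice of day 25 changed none of these lists' genes by limma.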

How the data were processed

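Testis RNA of 35 mice was measured on Affymetrix arrays, 18 of day 15 and 17 of day 25. The authors deposited RMA values on the log2 scale, per the submitters' processing notes and the values, which run from 2.19 to 14.9 at day 15 and from 2.81 to 15.1 at day 25; the RMA version and settings are not given in the sources used here. Probe sets were named through GEO's platform annotation: at day 15, 21789 of 35556 had 1 symbol, 1621 several and 12146 none; at day 25, 34958 of 45101 had 1 symbol, 932 several and 9211 none.

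Only probe sets with 1 symbol were used, the brightest per gene. A gene was tested if 2 or more arrays exceeded the 25th percentile of that age's values (5.56 and 4.76). For each age the 6 groups were fitted as means with limma 3.58.1 in R 4.3.3 (lmFit, contrasts.fit, eBayes), and p-values were adjusted by Benjamini-Hochberg over all tested genes within a comparison. The fit was tested on simulated data. Members past the threshold are named in each comparison, or the 3 with the smallest p where fewer than 3 passed, and up to 4 genes by p of each other pathway list.

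Members and lists were chosen with earlier results of these data known. Alternatives were another filter, normalization and probe set choice, array weights, smaller fits, a batch or RNA quality term, a replicate block, and leaving out arrays. The sample numbers of the labels were checked as pairs: residuals of same-numbered arrays correlated above 0.1 in every pair in 3 comparisons (the PTU effect in heterozygous mice and the exposed homozygous minus wild type difference of day 15, and the PTU effect in wild type mice of day 25), and there the replicate block left 0 members called, as without it.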

Additional observations from a re-analysis of the deposited data

Results flagged for a closer look

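For the members named here the PTU difference was not the same in homozygous and in wild type mice by limma's test of the difference between them. At day 15 these were 4 of 30 members (13.3%), below the 16.4% of all genes that passed. The homozygous value was more negative for Srebf2 by -0.81 (adjusted p = 0.00972), Dhcr7 by -0.74 (adjusted p = 0.0181), Hsd17b7 by -0.72 (adjusted p = 0.016) and Scarb1 by -0.70 (adjusted p = 0.0288). The pachytene marker mean in unexposed wild type arrays of that age, 9.82 to 10.34, also stood apart, and its part was not tested.

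At day 25, 23 of 30 members passed (76.7%), against 59.4% of all genes (33.1% more positive, 26.3% more negative). The homozygous value was more positive for 10 synthesis enzymes. These were Hmgcs1 by 0.80, Mvd by 0.94, Fdps by 0.52, Ggps1 by 1.03, Lss by 0.51, Msmo1 by 1.06, Hsd17b7 by 1.08, Sc5d by 0.66, Dhcr7 by 0.80 and Tm7sf2 by 0.92. It was more positive for the sensing genes Srebf1 by 1.37, Srebf2 by 0.49, Scap by 1.23 and Insig1 by 1.84. The movement and efflux genes Npc1 (1.22), Npc2 (0.87), Stard4 (1.12), Abca1 (1.19) and Abcg1 (1.26) were more positive as well. It was more negative for Fdft1 by -1.22, Sqle by -0.36, Insig2 by -0.66 and Nr1h3 by -1.07. The exposed homozygous group of that age held 2 arrays, which also stood apart in the spermatid marker mean (5.67 to 6.33), and the part of that shift was not tested. Of these 23 differences, 15 kept direction and call in every alternative that used the brightest probe set.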

How the results depend on the processing

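Of 127 member differences that passed, 39 kept direction and call in every alternative that used the brightest probe set. Of 133 alternative counts of members, 96 lay within 1.5 times the count reported. The share of all genes called in each alternative is not given here, so higher counts are no stronger result about the members. At day 15, PTU in wild type gave 6 members, but 14 with array weights, 10 with the 2 groups alone, 10 within the first array set and 0 without the arrays with Spink8 above 7 (0 to 8 leaving out 1 array). PTU in homozygous gave 1, but 3 with array weights, 2 with a replicate block by sample number, and 0 with every probe set on its own, no filter, quantile normalization, the groups alone, within either array set or without the Spink8 arrays (0 to 2). PTU averaged over genotypes gave 0, but 1 with quantile normalization, 4 with array weights, 3 when the array set was a block term and 2 in the first set alone (0 to 2). Unexposed homozygous minus wild type gave 13, but 22 weighted by array, 2 with the Spink8 arrays dropped and 20 in the first set alone (4 to 15). Heterozygous minus wild type gave 0, but 5 with array weights and 1 with the replicate block (0 to 2). Exposed homozygous minus wild type gave 0 (0 to 5). The PTU difference between genotypes gave 4, but 10 weighted by array, 1 with the Spink8 arrays dropped and 10 in the first set alone (2 to 6).

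At day 25, PTU in heterozygous gave 5, but 8 with array weights, 3 with the groups alone, 2 with the replicate block and 8 without the exposed homozygous arrays (0 to 8). PTU in homozygous gave 26, but 17 with array weights (16 to 26). PTU averaged over genotypes gave 22, but 6 over wild type and heterozygous alone (16 to 22). Unexposed homozygous minus wild type gave 5, but 8 with every probe set, 9 with array weights and 3 with the β-actin covariate (0 to 7). Exposed homozygous minus wild type gave 18, but 1 with the β-actin covariate (12 to 20). In both homozygous minus wild type comparisons the β-actin values did not overlap, so that covariate cannot tell RNA integrity from genotype. Heterozygous minus wild type gave 4, but 8 with every probe set and 7 with array weights (2 to 4). The PTU difference between genotypes gave 23 (16 to 24), and PTU in wild type gave 0 in every setting. A replicate block by sample number, where the numbers do not pair the arrays, moved the day 15 counts of 6 and 13 to 8 and 15.

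With the brightest probe sets the direction turned in 4 cases. PTU in heterozygous mice at day 15 gave Srebf1 0.11 within the first array set and Nr1h3 0.11 within the second. PTU at day 25 over wild type and heterozygous alone gave Hsd17b7 -0.011, and exposed homozygous minus wild type with the β-actin covariate gave Pmvk -0.079. The cause was not tested in any of these cases. The within-set, exposed-homozygous and wild type with heterozygous settings were chosen after seeing the data.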
